A study of Mus musculus with 12 samples.

Results

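The 10 activity-induced immediate early genes Fos, Fosb, Junb, Egr1, Egr2, Egr4, Arc, Npas4, Nr4a1 and Dusp1 were taken by symbol from the 24985 genes of a raw count table of mouse dorsal hippocampus, and are described mouse by mouse. All 10 had a row and all 10 passed the filter on low counts, as did 14742 of the 24985 genes. The table held 12 C57Bl6/J mice in 4 groups of 3. PBS control mice were injected with PBS and fed standard chow (TestDiet), PBS acetate mice were injected with PBS and fed chow (LabDiet 5001) with 5% sodium acetate, and Tau control and Tau acetate mice received 1 µg of AD tau on the same 2 diets. The labels thus name the chow of the diets differently, whereas the methods describe a control feed matched in calories and give TestDiet as its maker, so whether the base chow was shared is not settled by these sources. AD tau is the sarkosyl-insoluble tau fraction purified from the brains of people with Alzheimer's disease, and it was injected on one side only, into mice that carry no tau transgene. All 12 mice were wild type and were injected at 6 months of age. They were kept 6 months, tested for remote recall of a fear memory, and killed 24 hours after that test, all on 1 day. The table held no mice without that test, so a rise of these genes with the recall test cannot be read from these samples. The labels give male for every mouse. However, Xist lay between 920 and 1340 CPM (counts scaled by normalized library size) in all 12, and 8 Y-linked genes had 0 counts in total. The counts are thus those of female RNA. The methods give females for behavioral experiments and males for bulk RNA sequencing, and these mice went through both. Libraries of polyadenylated RNA held between 12983233 and 20218340 counts.

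Immediate early genes are transcribed within minutes of strong synaptic input, without new protein being made first, and their messenger RNAs decay quickly. Calcium entry and the MAP kinase cascade reach their promoters through CREB, which binds the cAMP response element (CRE), and through SRF, which binds the CArG box. In the hippocampus they are used as marks of neurons that were recently active, and several of them are needed for lasting memory.

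The promoters show what the genes have in common in sequence. Windows of 250 bases before the transcription start were available in RefSeq (GRCm38.p6) for 8 of the 10 genes, all but Arc and Egr1. The core of the CRE (TGACG, either strand) was present in all 8, against 17.8% of 32851 windows of the same length over all genes. The palindromic full CRE (TGACGTCA, which also counts as 2 cores) was found only before Dusp1 among the 8, against 1.55% of all windows. The CArG box, searched as CCWWWWWWGG with W for A or T, was found in these windows only before Egr2 (all windows 1.47%). The EGR site (GCGNGGGCG, either strand) was found before Fosb and Nr4a1 (all windows 4.70%). Of the TATA box only the letters TATAAA were searched (either strand), and they were found only before Fos (all windows 12.4%). The Egr4 stretch printed below holds TATATAAG, which that search does not count. The AP-1 site (TGANTCA) was found before none of the 8 (all windows 6.75%). Egr2 has 5 start sites in RefSeq, and a motif was counted if any window held it. The Npas4 window lies inside the first exon of a longer GENCODE transcript. A match describes the letters of the window and shows no binding. The search did not reach beyond the 250 bases and took no near matches. A motif that was not found may therefore still be present for that gene. Stretches of 4 promoters are printed 5′ to 3′ on the strand of the gene, with CRE cores of either strand in capitals. Fos and Dusp1 are shown because they had the smallest unadjusted p-values between injections, Nr4a1 because it belongs to the most tightly correlated pair, and Egr4 because it was, with Junb, the most precisely measured. The first 3 run from base -250 to base -1, and Dusp1 stops at base -48, where a GENCODE exon begins.

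Fos (GRCm38 chr12:85473640-85473889, plus strand): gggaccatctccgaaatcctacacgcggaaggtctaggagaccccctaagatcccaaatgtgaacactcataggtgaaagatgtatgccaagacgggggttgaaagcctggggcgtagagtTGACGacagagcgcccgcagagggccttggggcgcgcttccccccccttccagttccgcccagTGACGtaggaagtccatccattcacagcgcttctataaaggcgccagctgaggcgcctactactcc
Egr4 (chr6:85513590-85513839, minus strand): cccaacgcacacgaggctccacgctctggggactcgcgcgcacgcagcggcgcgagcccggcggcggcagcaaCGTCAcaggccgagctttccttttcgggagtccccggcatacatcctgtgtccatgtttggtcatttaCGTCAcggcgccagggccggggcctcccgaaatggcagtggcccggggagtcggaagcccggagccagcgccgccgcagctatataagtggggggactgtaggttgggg
Nr4a1 (chr15:101266596-101266845, plus strand): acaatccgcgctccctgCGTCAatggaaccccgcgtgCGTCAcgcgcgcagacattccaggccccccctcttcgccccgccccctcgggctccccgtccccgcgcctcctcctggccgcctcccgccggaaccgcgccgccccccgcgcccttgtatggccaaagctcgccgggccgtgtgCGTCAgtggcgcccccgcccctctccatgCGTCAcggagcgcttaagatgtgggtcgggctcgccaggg
Dusp1 (chr17:26508520-26508722, minus strand): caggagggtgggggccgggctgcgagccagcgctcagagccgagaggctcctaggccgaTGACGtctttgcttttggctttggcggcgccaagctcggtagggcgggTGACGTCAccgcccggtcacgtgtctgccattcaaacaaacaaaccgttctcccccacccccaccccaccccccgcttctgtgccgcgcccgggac

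CRE cores began at bases -129 and -66 before Fos, at -177 and -109 before Egr4, and at -233, -213, -69 and -40 before Nr4a1. Before Dusp1 they began at -191, -143 and -140, the last pair forming the full CRE.

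The levels of the 10 genes spread over a wide range when set per kilobase of exon. Averaged over the 12 mice, Arc was highest at 48.9 CPM per kb, followed by Egr1 at 36.0, Junb at 28.0 and Nr4a1 at 21.7 CPM per kb. Egr4 stood at 13.2 CPM per kb, Fos at 4.70, Dusp1 at 4.48, Npas4 at 2.63, Fosb at 1.52 and Egr2 at 0.731 CPM per kb. Neighbours in this order overlapped in their ranges over the 12 mice, except that Nr4a1 lay above Egr4, and Egr4 above Fos, in every mouse.

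Among the AP-1 subunits, Fos (chr12:85473890-85477273) was counted at 16.5, 12.7 and 13.1 CPM in the 3 PBS control mice, at 13.8, 10.5 and 8.94 in PBS acetate, at 9.38, 5.37 and 13.2 in Tau control, and at 9.42, 10.1 and 9.63 in Tau acetate. The 3 PBS control mice were among the highest, but 1 Tau control mouse reached them, so the groups overlapped. Fosb (chr7:19302696-19310051), the partner whose truncated splice form accumulates with repeated activity, averaged 10.3 ± 2.09 CPM in PBS control, 9.49 ± 2.32 in PBS acetate, 8.79 ± 1.70 in Tau control and 9.31 ± 0.652 in Tau acetate (SD, n = 3 in each group). Junb (chr8:84974484-84978718), the Jun partner with weaker transactivation, was counted at 68.3, 55.9 and 65.9 CPM in PBS control and at 79.1, 68.8 and 67.0 in PBS acetate. It was counted at 69.7, 55.0 and 55.4 CPM in Tau control and at 60.0, 64.8 and 62.9 in Tau acetate. All 3 PBS acetate mice lay above all 3 Tau acetate mice, while the other groups overlapped.

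The zinc-finger factors of the EGR family covered a wide range of precision. Egr1 (chromosome 18), which binds GC-rich sites and is widely used as an activity marker, was counted at 151, 164 and 166 CPM in PBS control, 159, 154 and 144 in PBS acetate, 172, 114 and 188 in Tau control, and 164, 200 and 162 in Tau acetate. The Tau control mice held both the lowest value of all 12 and one of the highest. Egr4 (chr6:85511121-85513589) averaged 26.2 ± 1.53 CPM in PBS control, 29.3 ± 3.16 in PBS acetate, 27.3 ± 3.50 in Tau control and 30.9 ± 1.38 in Tau acetate (SD, n = 3 in each group). Both acetate means were above both control-diet means, with overlapping mice. Egr2 (chr10:67535475-67542188) was the rarest, with 19 to 79 counts a mouse and 1.35 to 5.10 CPM. Its highest mouse was in PBS acetate and its lowest in Tau acetate.

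Npas4, a bHLH-PAS factor induced by calcium entry and tied to inhibitory synapses (chr19:4984355-4990316), was counted at 14.6, 13.2 and 13.7 CPM in PBS control, 13.0, 10.2 and 7.22 in PBS acetate, 13.6, 4.97 and 8.93 in Tau control, and 10.8, 6.11 and 14.1 in Tau acetate. The 3 PBS control mice agreed within 1.11-fold, whereas the highest and lowest mouse differed 2.73-fold in Tau control, 2.30-fold in Tau acetate and 1.81-fold in PBS acetate. Nr4a1, an orphan nuclear receptor (chr15:101254269-101274795), was counted at 82.3, 54.3 and 59.9 CPM in PBS control, 111, 89.3 and 79.2 in PBS acetate, 75.4, 54.1 and 83.1 in Tau control, and 67.0, 94.2 and 64.9 in Tau acetate. The PBS acetate mice included the highest value of the 12, and PBS control 1, Tau control 3 and Tau acetate 2 lay among them.

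Arc, the effector at the synapse that promotes removal of AMPA receptors (chr15:74669083-74672570), was counted at 187, 129 and 153 CPM in PBS control, 186, 162 and 155 in PBS acetate, 155, 96.6 and 161 in Tau control, and 129, 161 and 119 in Tau acetate. Dusp1 (chr17:26505590-26562128), the phosphatase that switches off MAP kinases, was counted at 18.1, 16.2 and 16.4 CPM in PBS control and at 23.2, 14.7 and 13.5 in PBS acetate. It was counted at 14.1, 10.9 and 13.0 CPM in Tau control and at 13.5, 13.1 and 11.4 in Tau acetate. On each diet all 3 tau mice lay below all 3 PBS mice. Exons of Junb overlap Prdx2 and those of Dusp1 overlap Ergic1 on the other strand, and the counting is stated to use strand.

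**Figure D1:**
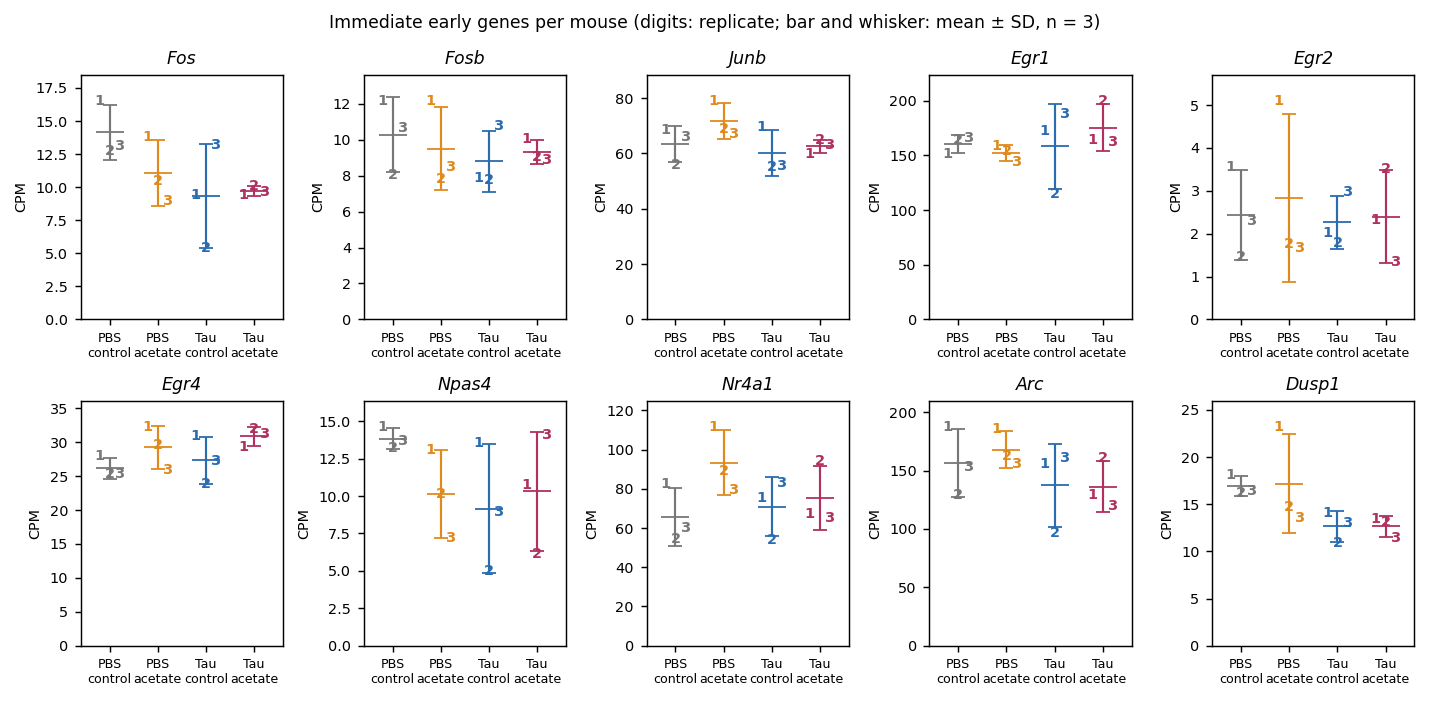
CPM of each gene (vertical axes, from 0) in each mouse, shown by its replicate digit, with the mean and SD of each group of 3. In the Tau control column the digit 2 is at the bottom for all 10 genes, and for Dusp1 the tau mice lie below the PBS mice of the same diet.

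Tau was compared with PBS on the control diet to ask whether the seeded pathology altered these genes. In edgeR's quasi-likelihood test over 14742 genes, 0 of the 10 passed an adjusted p of 0.1, against 0.0136% of all genes tested. Unadjusted p-values below 0.05 were found for 2 of the 10 and for 1423 of the 14742 genes, and DESeq2 fitted to the 12 mice also called 0 and gave 2. Without PBS control 1, without Tau control 2 or with the difference of the marker scores of the hippocampal subfields CA1 and CA3 in the model, 0 of the 10 had an unadjusted p below 0.05. The count was 1 without Tau control 3 and 3 without Tau control 1. In this comparison 8 of 10 estimates were below 0, as were 7414 of the 14742 genes. The median log2 fold change was -0.17 against -0.00086 over all genes. The 10 estimates share the same mice, so their signs are not independent. The estimate for Fos was -0.62 (SE 0.26, edgeR adjusted p = 0.470) and that for Dusp1 was -0.42 (SE 0.17, edgeR adjusted p = 0.449). For Npas4 it was -0.61 with an SE of 0.38 (edgeR adjusted p = 0.692), and for Fosb -0.24 with an SE of 0.18 (edgeR adjusted p = 0.740). Of the 10 genes, 1 (Dusp1) had groups that did not overlap, against 13.5% of all genes. Leaving out mouse Tau control 2 brought Fos to -0.33 and Npas4 to -0.30, and leaving out Tau control 3 (Fos) or Tau control 1 (Npas4) brought them to -0.95 and -1.01. Leaving out PBS control 1 brought Fosb to -0.098, and leaving out Tau control 3 brought it to -0.41. The 10 oligodendrocyte markers all had estimates below 0 in the same comparison (median -0.63, 0 called, summed level 7189 to 9271 CPM in PBS control and 4764 to 5770 in Tau control), and their part in the values of the 10 genes was not tested. The 5 CA1 markers all had estimates above 0 (median 0.49, 0 called, summed level 452 to 589 CPM in PBS control and 606 to 767 in Tau control), and the 5 CA3 markers all had estimates below 0 (median -0.35, 0 called, 429 to 520 and 326 to 415 CPM). As these levels did not overlap between the groups, the model with the CA1 and CA3 scores can hardly tell the injection from the score here. All 6 thalamus markers were below 0 (median -0.97, 0 called, 168 to 410 and 135 to 176 CPM) and all 6 mural markers above 0 (median 0.25, 0 called, 126 to 136 and 135 to 172 CPM). In bulk tissue, fewer cells of a type and less RNA per cell cannot be told apart.

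On the acetate diet, tau was again compared with PBS, in 6 other mice. edgeR called 0 of 10 genes and 0.136% of all genes, with 1 of 10 and 1523 of the 14742 genes at an unadjusted p below 0.05. DESeq2 on the 12 mice called 0 of 10 and gave 1, and on the 6 mice compared it called 0 and gave 4. Without PBS acetate 1 or without Tau acetate 3, edgeR gave 0. The Dusp1 estimate was -0.43 (SE 0.17, edgeR adjusted p = 0.395), close in size to that on the control diet. Without PBS acetate 1, the mouse with the highest Dusp1 level, it was -0.16, whereas on the control diet no single mouse moved the estimate outside -0.50 to -0.32. The oligodendrocyte markers, all 10 below 0 on the control diet, were all 10 above 0 here (median 0.47, 0 called). Of these, 7 had an unadjusted edgeR p below 0.05. Their summed level was 4501 to 6200 CPM in PBS acetate and 5434 to 8738 CPM in Tau acetate. The part of these markers in the values of the 10 genes, Dusp1 among them, was not tested. For Junb the estimate was -0.19 with an SE of 0.094 (edgeR adjusted p = 0.489), and without PBS acetate 1 it was -0.12. The other estimates at or above their SE were -0.30 for Arc (SE 0.21), -0.31 for Nr4a1 (SE 0.23) and 0.21 for Egr1 (SE 0.16). Junb, Egr1 and Dusp1, 3 of 10, had groups without overlap, against 16.2% of all genes. Without Tau acetate 2, the estimate was 0.10 for Egr1 and -0.50 for Nr4a1. Without PBS acetate 1, that for Nr4a1 was -0.16.

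Averaged over both diets, a comparison added after the data were seen, edgeR called 0 of 10 genes and 0% of all genes, and DESeq2 called 0 of 10 and 8 of all genes. The estimate for Dusp1 was -0.43 (SE 0.12, 95% interval -0.68 to -0.17), 55th of 14742 by p, with an edgeR adjusted p of 0.736 and a DESeq2 adjusted p of 0.296. On each diet all 3 tau mice lay below all 3 PBS mice for Dusp1. Groups did not overlap, in either direction, for 13.5% of all genes on the control diet and 16.2% on the acetate diet. The share of genes apart on both diets was not counted. Fos (-0.40, SE 0.18) was the other of the 2 genes with an unadjusted p below 0.05, and over all genes 927 had one. Without Tau control 2 the estimate for Fos was -0.26, and without Tau control 3 it was -0.57.

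The acetate diet was compared with the control diet first in PBS-injected mice, where the most genes were called, and which share the PBS control mice with the first comparison. edgeR called 8.84% of all genes and 0 of the 10, of which 0 had an unadjusted p below 0.05. Over all genes this is 1303 calls, and it was 15 without PBS acetate 2, 248 without PBS control 3, 315 without PBS acetate 1, 727 without PBS control 1 and 0 with the difference of the CA1 and CA3 scores in the model. DESeq2 called 0 of 10 and gave 1. The estimates were 0.50 for Nr4a1 (SE 0.24, edgeR adjusted p = 0.270), 0.17 for Junb (SE 0.095, edgeR adjusted p = 0.316) and 0.16 for Egr4 (SE 0.097, edgeR adjusted p = 0.370). They were -0.45 for Npas4 (SE 0.37, edgeR adjusted p = 0.540) and -0.36 for Fos (SE 0.25, edgeR adjusted p = 0.445). The median of the 10 was 0.057 against 0.0042 over all genes. For 1 of the 10, Npas4, all acetate mice lay below all control mice, against 26.3% of genes with groups that did not overlap. Markers of hippocampal subfields moved in the same comparison, with 4 of 5 CA1 markers called higher (median 0.68, summed level 452 to 589 CPM in PBS control and 718 to 946 in PBS acetate) and 4 of 5 CA3 markers called lower (median -0.85, 429 to 520 and 219 to 370 CPM). Of the oligodendrocyte markers, 4 of 10 were called lower (median -0.61). With the difference of the CA1 and CA3 scores in the model, the estimate was -0.041 for Egr4, 0.075 for Junb, 0.31 for Nr4a1 and -0.73 for Npas4. The summed CA1 and CA3 levels of the 2 groups did not overlap, so that model can hardly tell the diet from the score. Its 0 calls therefore do not decide between them. Leaving out PBS acetate 1 moved Egr4 to 0.091, and leaving out PBS acetate 3 moved Npas4 to -0.26. Without PBS control 2 the estimate for Junb was 0.093, and without PBS control 1 that for Fos was -0.22.

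In tau-injected mice, which include the Tau control mice of the first comparison, the estimates for acetate were small. edgeR called 0 of 10 and 0.0611% of all genes, and 0 of 10 had an unadjusted p below 0.05. DESeq2 gave an adjusted p for 9 of 10 and called 0. The estimates were above 0 for 9 of 10 genes and for 50.3% of all genes. Their median was 0.091 against 0.00079 over all genes, and they lay between -0.010 for Arc and 0.18 for Npas4 and Egr4. The 10 estimates share the same mice, and Tau control 2 was the lowest of its group in 10 of 10 genes, so their signs are not independent. The 10 oligodendrocyte markers were all above 0 here as well (median 0.53, 0 called, 8 with an unadjusted p below 0.05, summed level 4764 to 5770 CPM in Tau control and 5434 to 8738 in Tau acetate), and their part was not tested. The estimate for Egr4 was 0.18 (SE 0.096, edgeR adjusted p = 0.527, 95% interval -0.025 to 0.38). Without Tau control 2 it was 0.085 and without Tau control 1 it was 0.28. The groups overlapped for all 10 genes, whereas they did not for 14.4% of all genes.

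Averaged over both injections, again added after the data were seen, edgeR called 0 of 10 genes and 5.76% of all genes, and DESeq2 also called 0 of 10. Egr4 had the smallest p of the 10, with an estimate of 0.17 (SE 0.068, edgeR adjusted p = 0.197). Without PBS acetate 3 or without Tau control 1 it was called, at 0.21 (edgeR adjusted p = 0.0988) and 0.22 (edgeR adjusted p = 0.0983), and with the CA1 and CA3 scores in the model it was 0.037.

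The interaction asks whether the diet acted differently in tau and PBS mice. edgeR called 0 of 10 genes and 1.56% of all genes, 0 of 10 had an unadjusted p below 0.05, and DESeq2 called 0 and gave 0. The interaction, the log2 difference between the diet effect in tau mice and that in PBS mice, was 0.63 for Npas4 (SE 0.54), 0.43 for Fos (SE 0.36), -0.41 for Nr4a1 (SE 0.33) and 0.23 for Egr1 (SE 0.23). Without Tau control 2 it was 0.32 for Npas4, 0.15 for Fos and 0.039 for Egr1. Without Tau control 3 it was 0.77 for Fos and 0.37 for Egr1, and without Tau control 1 it was 1.03 for Npas4. Without PBS acetate 1 it was -0.27 for Nr4a1.

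The width of the intervals sets what could have been seen. In the 4 comparisons between groups, the 95% interval of the log2 fold change reached at most 0.21 to either side of the estimate for Egr4 and 0.20 for Junb. It reached 0.36 for Egr1, 0.37 for Dusp1, 0.39 for Fosb, 0.49 for Arc, 0.55 for Nr4a1, 0.57 for Fos, 0.88 for Npas4 and 1.08 for Egr2. A difference of 2-fold is 1 on this scale, and an estimate below the threshold does not show equal levels.

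**Figure D2:**
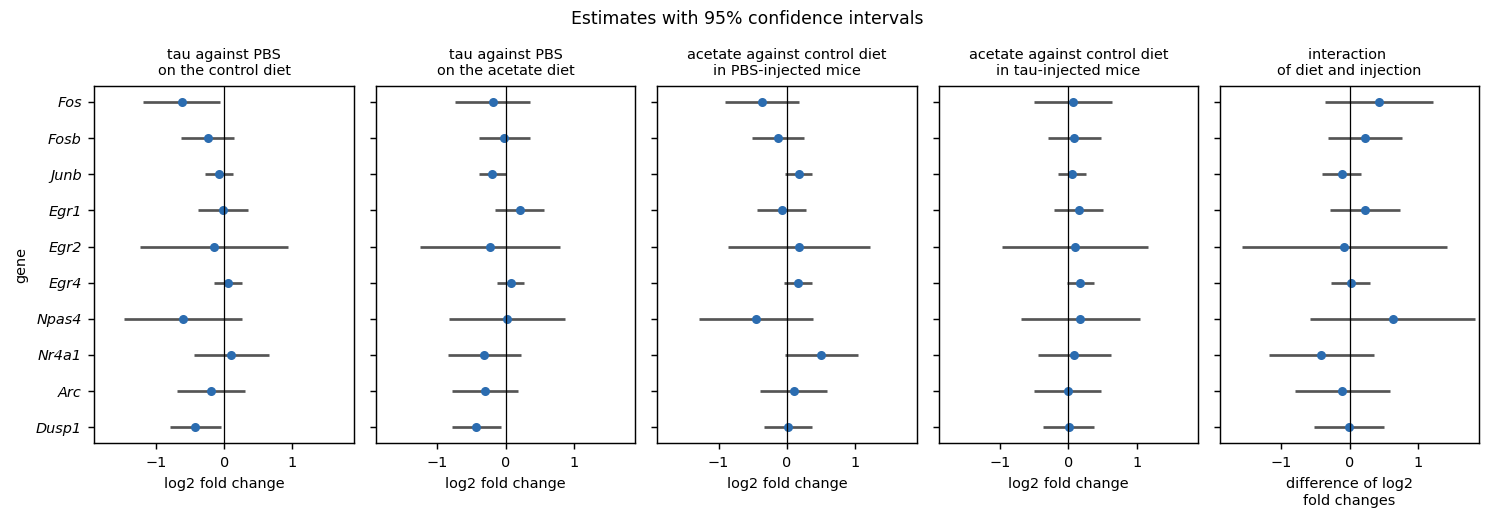
Estimates (points) and 95% confidence intervals (lines) for each gene in the 4 comparisons between groups and in the interaction, on the log2 scale, from edgeR. Intervals that do not cross 0 are those of Fos and Dusp1 for tau on the control diet and of Dusp1 for tau on the acetate diet, and none of the 10 genes was called after adjustment.

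The genes varied more between mice of the same group than most genes did. The SD of log2 CPM within groups was above the median of all genes tested for all 10, with a median of 0.271 over the 10 against 0.123 over all genes. It ran from 0.132 for Egr4 and 0.142 for Junb to 0.515 for Npas4 and 0.649 for Egr2. Counting noise alone gives an SD of 0.25 for Egr2, 0.12 for Npas4 and 0.030 for Arc. The fitted biological coefficient of variation was 31.9% for Npas4, 37.8% for Egr2 and 18.2% for Arc, with a median of 15.9% over the 10 genes against 7.38% over all genes.

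A few mice stood at the extremes of nearly every gene. Tau control 2 had the lowest level of all 12 mice in 9 of the 10 genes, all but Egr2, and was the lowest of its group in 10 of 10. Over the 10 genes it lay on average 0.37 log2 units below its group's mean. PBS acetate 1 was the highest of its group in 10 of 10 genes and the highest of all 12 mice in 5, with a mean of 0.34 log2 units above its group. PBS control 1 was the highest of its group in 9 of 10 genes and of all 12 mice in 4. The libraries of Tau control 2 and PBS acetate 1 held 15153232 and 15291421 counts, inside the range of the others.

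**Figure D3:**
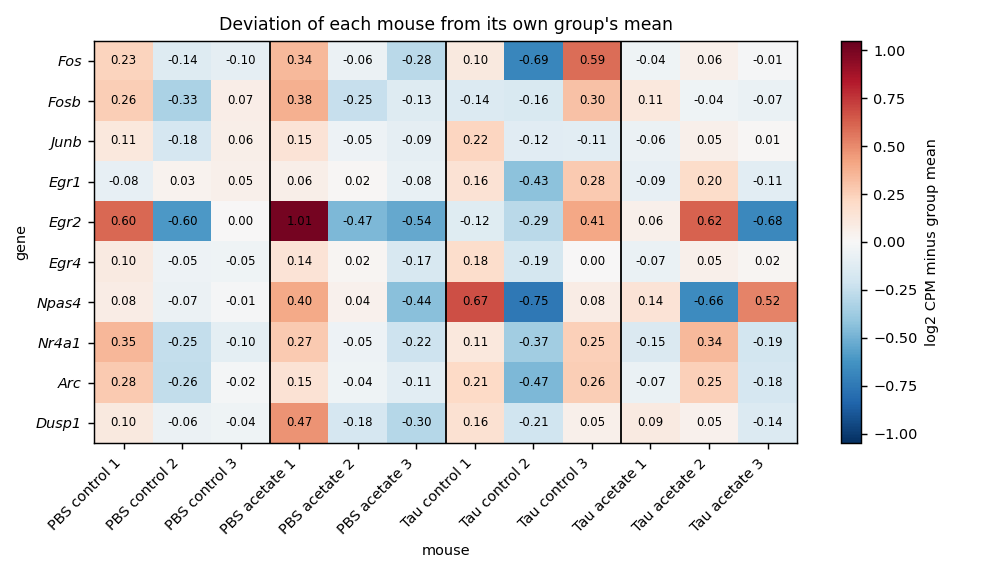
Log2 CPM of each gene (rows) in each mouse (columns) minus the mean of that mouse's group, with red above and blue below it. The column of Tau control 2 is negative for all 10 genes and that of PBS acetate 1 positive for all 10, while in Tau acetate 2 and 3 Npas4 is opposite in sign to most of the other genes.

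The levels of the 10 genes were correlated from mouse to mouse. After the mean of each group was taken off, Pearson's r over the 12 mice was above 0 for all 45 pairs of genes, with a median of 0.635. Over all pairs of the 14742 genes, 50.0% were above 0 and 4.06% reached that median. Of the 45 pairs, 33 had r of at least 0.5, against 9.68% of all pairs. In an exact two-sided permutation test over the 1296 orders of mice within groups, 16 pairs had an unadjusted p below 0.05 and 13 passed 0.1 after Benjamini-Hochberg adjustment over the 45. These 13 pairs had between them every gene but Egr1 and Npas4.

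The tightest pair was Arc and Nr4a1, with r = 0.943 and Spearman's rho = 0.951 (exact permutation p = 0.000772 for both, the smallest that the permutations can give, and adjusted p = 0.0174 for r and 0.0231 for rho). It stayed at 0.940 without the 2 mice farthest from the median of Arc and at 0.932 or above without any 1 mouse. Fos followed Arc with r = 0.851 (rho 0.825, exact permutation p = 0.00154, adjusted 0.0174) and Nr4a1 with r = 0.814 (rho 0.846, exact permutation p = 0.00154, adjusted 0.0174). Without the 2 mice farthest from the median of Fos, these were 0.731 and 0.830. Egr2 followed Nr4a1 with r = 0.846 (rho 0.804, exact permutation p = 0.000772, adjusted 0.0174) and Fosb with r = 0.827 (rho 0.776, exact permutation p = 0.00849, adjusted 0.0477). Without the 2 mice farthest from the median of Egr2 and of Fosb, these were 0.798 and 0.719. Junb was closest to Egr4, with r = 0.809 (rho 0.832, exact permutation p = 0.0239, adjusted 0.0828), or 0.628 without the 2 mice farthest from the median of Junb.

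Other pairs rested on single mice. Egr1 and Arc had r = 0.773 over the 12 mice and 0.390 without Tau control 2, and Egr1 and Fos had 0.791 and 0.317. Neither passed the adjusted test (exact permutation p = 0.0664 and 0.0556, adjusted 0.136 and 0.135). Npas4 had the lowest median r with the other 9 genes, 0.346, from 0.042 with Egr2 to 0.684 with Egr4. Its value with Egr1 was 0.343 over the 12 mice and -0.56 without Tau control 2. Arc had the highest median r, 0.723, and Egr4 followed at 0.716.

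The number of pairs past the threshold changed without the 2 mice at the extremes and with 1 marker list taken off. Without PBS acetate 1 and Tau control 2 together, r was above 0 for 34 of 45 pairs, the median was 0.331 and 0 pairs passed, with 144 orders of the mice and a smallest possible exact p of 0.00694. Leaving out single mice gave 3 to 22 pairs past the threshold and 40 to 45 pairs above 0. The fewest, 3, came without PBS acetate 1, 2 or 3, with 7 without Tau control 2, 8 without PBS control 2 or 3, 20 without Tau control 1 and 22 without Tau control 3. With the slope on the oligodendrocyte score also taken off, all 45 pairs stayed above 0 with a median of 0.533, but 0 passed, and 8 had an unadjusted p below 0.05. These counts are for Pearson's r, and by Spearman's rho 3 pairs passed in that setting.

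**Figure D4:**
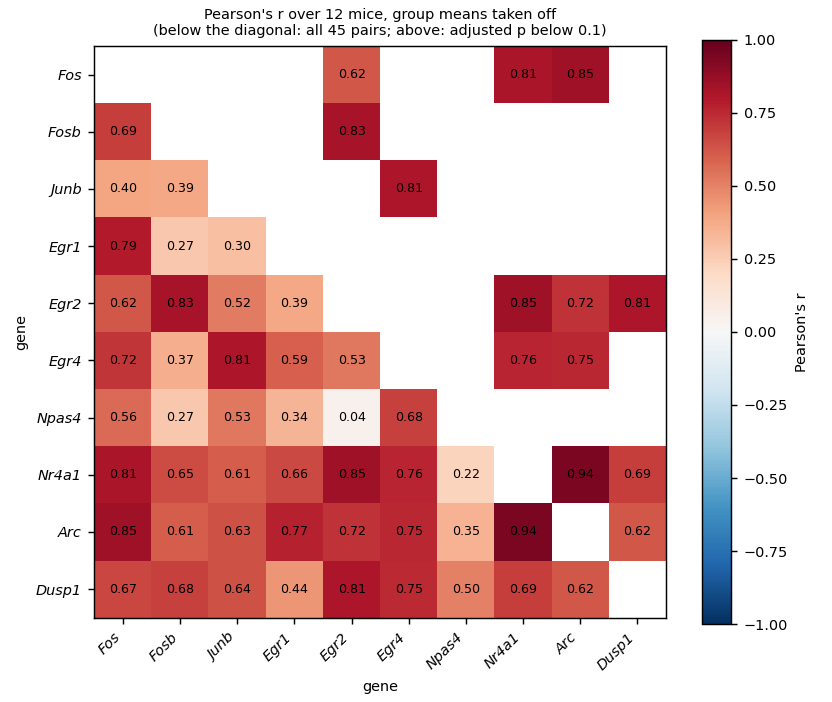
Pearson's r of each pair of genes over the 12 mice after group means were taken off, with all 45 pairs below the diagonal and the 13 with an adjusted p below 0.1 above it. Values run from 0.042 for Egr2 with Npas4 to 0.943 for Arc with Nr4a1, and the row of Npas4 is the palest.

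Gene lists of the same response were set beside the mean of the 10 genes in each mouse, again with group means taken off. The score of 20 other early signalling and RNA regulators had r = 0.832 with that mean over the 12 mice (rho 0.783, and 0.721 without the 2 mice farthest out). Within it, 18 of 20 genes were above 0 and 10 of 20 reached 0.5, against 48.7% and 8.12% of all genes. The highest were Trib1 at 0.772, a pseudokinase that steers protein degradation, Dusp6 at 0.728, the phosphatase of ERK, and Gadd45b at 0.715, a stress and demethylation factor. The 21 other early transcription factors tested had a score with r = 0.718 (0.613 without the 2 farthest mice), with 15 of 21 genes above 0. Crem at 0.734, Ier2 at 0.720 and Csrnp1 at 0.717 were highest, while Jun was at -0.772 and Jund at -0.585, so that these AP-1 subunits ran opposite to the mean of the 10 genes from mouse to mouse. The 18 synaptic and secreted effectors, the later layer of the response, had a score with r = 0.593 (0.417 without the 2 farthest mice), and 1 of 18, the adhesion protein gene Amigo3, reached 0.5.

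The upstream regulators, which carry the signal to these promoters, did not share the pattern as a list, with 9 of 21 genes above 0. Mapk3, which encodes ERK1, was at -0.827, and Mrtfa and Crtc1, the coactivators of SRF and CREB, were at -0.664 and -0.650. Elk4 and Mef2a were at 0.520 and 0.556. All these values are descriptions over the same 12 libraries, which share 1 normalization.

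Among genes outside the 10, those most like their mean were Lrrc40 (r = 0.907), Jam3 (0.892), 9330188P03Rik (0.891), Fcho2 (0.888), Lonp1 (0.883), Zfp984 (0.881), Kat2a (0.879) and Zfp59 (0.878), over 12 mice. The choice was made among genes with a mean of at least 1 CPM.

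Of the marker lists, that of oligodendrocytes was closest to the 10 genes. All 10 oligodendrocyte markers had r of at least 0.5 with their mean, from 0.542 for Opalin to 0.764 for Mog, against 8.12% of all genes. These 10 markers share the same mice, so they are not independent. The score of the list had r = 0.652 (rho 0.699, 0.836 without the 2 mice farthest out on the oligodendrocyte axis, Tau acetate 1 and 3). It was 0.615 without PBS acetate 1 and Tau control 2. None of the 6 astrocyte, 5 CA1, 5 CA3 or 6 pan-neuronal markers reached 0.5, nor did 6 of 7 microglial markers. The microglial exception, Tmem119, was at 0.773. Of the 6 striatum markers Drd2 was at 0.721 and Adora2a at -0.618. The dentate granule markers leaned the other way, with 1 of 6 above 0, a median r of -0.339 and a score at -0.318. They were not alone in this. The neocortex score was at -0.353 (2 of 6 above 0), the thalamus score at -0.256 (1 of 6 above 0) and the 1 blood marker tested at -0.323. The log2 total count (r = -0.039) and the difference of the CA1 and CA3 scores (r = 0.023) did not follow the mean of the 10.

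**Figure D5:**
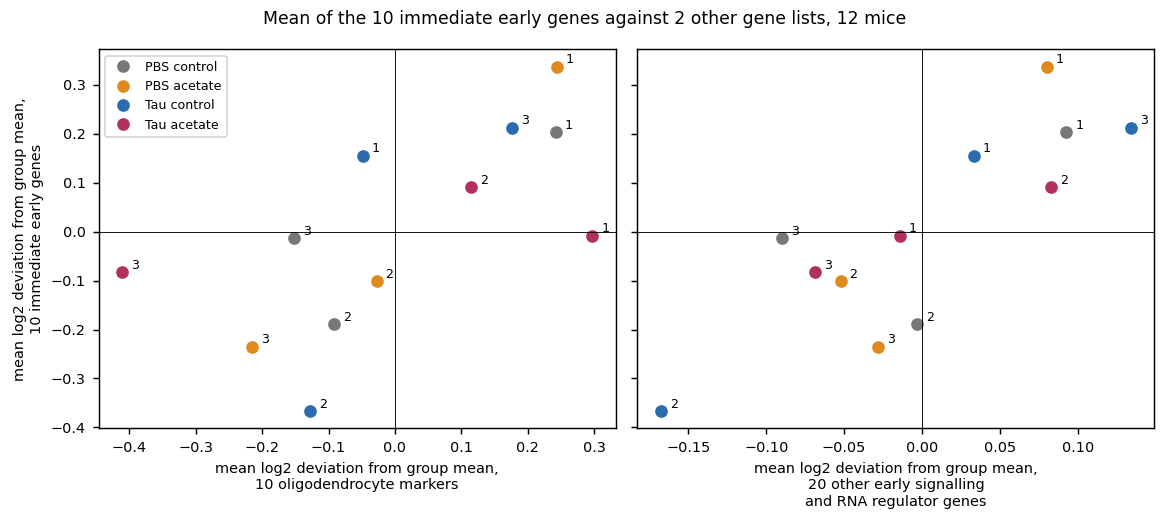
Mean log2 deviation of the 10 immediate early genes from the group mean (vertical axis) against that of 10 oligodendrocyte markers (left) and of 20 other early signalling and RNA regulator genes (right), with 1 point per mouse, coloured by group and numbered by replicate. Points rise to the right in both panels, with r = 0.652 and r = 0.832.

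Other genes of the activity response were called for the acetate diet in PBS-injected mice. Of 59 tested on the 3 lists, 11 were called (edgeR, adjusted p below 0.1), which can be read against 8.84% of all genes. Bhlhe40 (0.61, SE 0.080) and Per1 (0.58, SE 0.081), both tied to the circadian clock, Plk2 (0.26), Penk (0.43) and Sorcs3 (0.36) rose, and Klf6 (-0.25), Spry2 (-0.38), Inhba (-0.62), Nptx1 (-0.35), Nrn1 (-0.38) and Ptgs2 (-0.94) fell. With the CA1 and CA3 scores in the model 0 of 59 were called, and 0 of all genes, but that model can hardly tell the diet from the score in these mice. Single mice moved the counts as well, with 2 of 59 called without PBS acetate 2 (Bhlhe40 and Per1, against 15 of all genes), 4 without PBS control 3 (248), 5 without PBS acetate 1 (315) and 7 without PBS control 2 (982). Among 21 upstream regulators, Cacna1c (-0.26), Camk4 (-0.45) and Mef2a (-0.18) fell. None of these 3 was called with the CA1 and CA3 scores in the model, where Camk4 was at 0.0071, nor without PBS control 1, PBS control 2, PBS acetate 1 or PBS acetate 2. In the other 3 comparisons between groups, 0 of the 59 were called by edgeR. For tau on the control diet, 6 of 21 transcription factors, 3 of 20 signalling and RNA regulators and 4 of 18 effectors had an unadjusted p below 0.05, against 1423 of the 14742 genes, and DESeq2 on the 12 mice called 3 of the 59 and 100 of all genes. For tau on the acetate diet the unadjusted counts were 2, 4 and 3 genes (1523 of all genes), and for acetate in tau mice 3, 3 and 2 (1603 of all genes), with 0 of the 59 called by DESeq2 in both.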

How the data were processed

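Polyadenylated RNA from the right dorsal hippocampus of 12 mice was sequenced. The authors aligned reads with STAR 2.5.2a to GRCm38, counted them per gene and strand with HTSeq 0.9.1, and deposited the raw counts in a table with a column for each mouse. Groups and replicate numbers came from the sample titles. The members and gene lists were chosen with earlier results of these data known.

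Genes were kept by filterByExpr (minimum count 10, minimum total 15). edgeR 4.0.16 (R 4.3.3) fitted 1 mean per group over all 12 mice with TMM normalization and a robust quasi-likelihood F test, with Benjamini-Hochberg adjustment over all 14742 genes and calls below 0.1. The SE of an estimate is its size over the root of F. DESeq2 1.42.0 served as a second tool. CPM are TMM-scaled. Covariation used log2 CPM (prior count 2) with group means taken off and exact permutation of mice within groups. Scores are means of centred log2 CPM over a list. Functions were tested on simulated data. Exon lengths are from GENCODE M21. Named genes were all 10 members, list genes past the threshold, and the 8 genes most like the members' mean with at least 1 CPM. Genes named from the lists for their correlation were chosen after their values were seen. Replicate libraries differed by more than counting noise (chi-square per degree of freedom of at least 3.45). Intervals rest on 3 mice per group, with 8 residual degrees of freedom in all. To these the fit adds prior degrees of freedom for the spread, drawn from all genes.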

Additional observations from a re-analysis of the deposited data

Results flagged for a closer look

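Fos and Egr1 were picked out because every PBS acetate mouse lay below the PBS control mean and every Tau acetate mouse above the Tau control mean. Only the 10 genes were screened for this pattern, and its share over all genes was not counted. For Fos the Tau acetate mice, at 9.42 to 10.1 CPM, lay little above the Tau control mean of 9.32 CPM. The difference between the diet effects was 0.43 for Fos (SE 0.36, edgeR adjusted p = 0.691) and 0.23 for Egr1 (SE 0.23, edgeR adjusted p = 0.760), so the test of the interaction did not call either. Without mouse Tau control 2, the lowest of its group in both genes, the values were 0.15 and 0.039.

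Outside the 10 genes, 4 of the 59 other activity genes and 1 of 10 glucocorticoid-responsive genes had diet effects that differed between tau and PBS mice in edgeR's interaction test, against 1.56% of all genes. Among the cell type markers, 1 oligodendrocyte, 1 astrocyte and 1 choroid plexus marker were called as well. For Plin4, a lipid droplet protein gene of the glucocorticoid list, the interaction was 1.80 on the log2 scale, for Spry2 0.47, for Bhlhe40 -0.54, for Per1 -0.44 and for Maff, at a mean of 0.862 CPM, 2.17. Without PBS acetate 2 none of the 5 was called, with edgeR adjusted p-values from 0.115 for Plin4 to 0.275 for Maff, and none was called with the CA1 and CA3 scores in the model. Calls over all genes fell from 230 to 8 and to 3 under these changes. Of the 4 that belong to the 59 activity genes, all but Plin4, none was called without Tau control 2 or without Tau acetate 1, where 47 and 22 of all genes were.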

How the results depend on the processing

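For the 5 comparisons, 98 alternatives were run (no filter, DESeq2's size factors, DESeq2, the 6 compared mice alone, an adjusted p below 0.05, the CA1 and CA3 scores as a covariate, a replicate block, and each mouse left out), and 0 of the 10 genes were called in each of the 98. In the comparisons averaged over diets or injections, 1 gene (Egr4) was called without PBS acetate 3 and without Tau control 1, and counts over left-out mice ran from 0 to 1. Of 23 single estimates printed for the 10 genes, 1 changed sign, Egr4 for acetate in PBS mice (-0.041 with the CA1 and CA3 scores). Under that covariate Camk4 (0.0071) and Sorcs3 (-0.082) also changed sign. In PBS-injected mice the CA1 and CA3 levels were separated by diet, so that covariate and the diet can hardly be told apart. The number of all genes called moved with the tool, from 2 by edgeR to 100 by DESeq2 on all 12 mice for tau on the control diet, from 9 to 167 for acetate in tau mice, from 20 to 130 for tau on the acetate diet and from 230 to 472 for the interaction.

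The 13 correlated pairs became 21 with the CA1 minus CA3 score taken off, 0 with the oligodendrocyte score taken off and 0 without the 2 mice farthest from the median, where fewer orders of the mice are possible, and ran from 3 to 22 without single mice. By Spearman's rho 13 pairs passed in the main setting, 31 with the CA1 minus CA3 score taken off and 3 with the oligodendrocyte score taken off. With group means left in, 15 passed by Pearson's r and 1 by Spearman's rho. Pairs above 0 numbered 45 in the alternatives that kept all mice. The 11 other activity genes called for acetate in PBS mice became 7 at an adjusted p below 0.05, 0 with the CA1 and CA3 scores, and 2 to 13 without single mice. The cause was not tested. Replicate numbers did not pair the mice: of 18 same-numbered pairs, 2 had deviations correlated above 0.1, and 3 of 12 mice correlated best with their own number. The replicate block called 0 of the 10 genes in each comparison. Depth limits Egr2 most, at 19 to 79 counts a mouse.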
